A study of Drosophila melanogaster with 12 samples.

Results

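Dopaminergic neurons were compared with cholinergic neurons in fruit flies that lack parkin. The comparison used 6 of the 12 arrays in the series, taken by their titles: 3 of mutant dopaminergic neurons and 3 of mutant cholinergic neurons. The other 6 arrays, 3 of control dopaminergic and 3 of control cholinergic neurons, showed which of the same differences were present with parkin. Every sample was a pool of 115 green fluorescent neurons, sorted by flow cytometry from at least 15 dissociated adult Drosophila melanogaster brains, and each pool was hybridised to 1 Affymetrix Drosophila 2.0 array. The sample labels call the genotypes mutant and control, and parkin null animals are named for the series without their alleles. The drivers that made each neuron type fluorescent and the age and sex of the flies are not given in the sources used here. A pool holds a mixture of the subtypes that its fluorescent label marks, so fewer cells of a subtype and less RNA per cell cannot be told apart in any value below. Values are the deposited log2 intensities per probe set, so a difference of 1 is a doubling, and differences are dopaminergic minus cholinergic with the standard error (SE) of limma.

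Dopaminergic neurons make dopamine from tyrosine through tyrosine hydroxylase and aromatic amino acid decarboxylase, load it into vesicles with the monoamine transporter VMAT and take it up again with the dopamine transporter. Cholinergic neurons, the main excitatory class of the fly brain, make acetylcholine with choline acetyltransferase and load it with the vesicular acetylcholine transporter. Parkin is a ubiquitin ligase that acts with the kinase PINK1 in mitochondrial quality control. People who inherit parkin mutations can develop Parkinson's disease, in which dopaminergic neurons are lost, and the title of the series sets sensitive against insensitive neurons.

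The 3 dopaminergic mutant arrays were unlike each other. On array 3 of that group, with the title code F6, 1627 probe sets reached a log2 intensity of 8, whereas 2182 to 3307 did so on the other 11 arrays. Among 730 probe sets that were bright on at least 10 of the other arrays, it lacked 511 (70.0%). Dopaminergic mutant array 1 lacked 119 of 593 (20.1%) by the same count, and the other 10 arrays lacked between 4.15% and 11.8%. The main results are therefore given with and without array 3, and values of array 1 are given where they stand apart. No label ties an array to its own cohort of flies or day of sorting, so each p-value rests on array-to-array spread, which may be technical. The letters of the title codes, whose meaning is not given, were partly tied to the groups. Letter E holds dopaminergic mutant array 2, cholinergic mutant arrays 2 and 3 and 1 array of each control group. Of the other mutant arrays, letter C holds cholinergic array 1 and letter D dopaminergic array 1, both beside control arrays. Letter F holds only dopaminergic mutant array 3. Letter and neuron type thus cannot be fully told apart in mutants.

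The dopaminergic identity of the mutant pools was seen on arrays 1 and 2, and for some genes only on array 2. The probe set of ple, which encodes tyrosine hydroxylase, measured 7.01, 10.94 and 4.36 on the dopaminergic mutant arrays, against 3.64, 3.78 and 3.78 on the cholinergic mutant arrays. It measured 10.39, 10.56 and 10.57 on the dopaminergic control arrays, against 3.77, 4.18 and 3.61 on the cholinergic control arrays. Every dopaminergic array lay above every cholinergic array in both genotypes, but mutant array 3 did so by less than 1 log2 unit and only mutant array 2 reached the control level. The difference was 3.70 ± 1.19 in mutants (adjusted p = 0.450) and 6.65 ± 1.19 in controls (adjusted p = 0.251). Without array 3 it was 5.24 ± 0.89 in mutants (adjusted p = 0.181). Averaged over both genotypes without array 3, ple was higher in dopaminergic neurons by 5.94 ± 0.60, the 1 probe set of 12460 past the adjusted threshold of 0.05 in that comparison (0.00803%, adjusted p = 0.0305). With all arrays the average of ple was 5.18 ± 0.84 and did not pass (adjusted p = 0.128), like every other probe set (0 of 12460, 0%, with 824, or 6.61%, at an unadjusted p under 0.05). The change of the ple difference with genotype was -2.95 ± 1.69 (unadjusted p = 0.108) and did not pass.

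For the transporters of dopamine array 3 was again the lowest of the dopaminergic mutant arrays, while array 1 differed between probe sets. Of 4 probe sets for Vmat, the vesicular monoamine transporter, 2 passed the filter on dim values. The first of them measured 8.57, 11.99 and 7.71 on the dopaminergic mutant arrays, against 5.81, 6.42 and 5.19 on the cholinergic mutant arrays, again without overlap. On the control arrays it measured 12.54, 12.25 and 12.73 in dopaminergic neurons, against 5.91, 6.59 and 6.33 in cholinergic neurons. Its difference was 3.62 ± 0.99 in mutants, 4.47 ± 0.97 without array 3 and 6.23 ± 0.99 in controls, and none of these passed the adjusted threshold (adjusted p = 0.437, 0.327 and 0.149). The second measured 12.71, 12.90 and 5.19 on the dopaminergic mutant arrays, against 10.04, 4.85 and 6.06 on the cholinergic mutant arrays. Here array 3 lay among the cholinergic arrays, and the difference was 3.28 ± 1.94 with it and 5.81 ± 1.34 without it. Array 1 was close to the dopaminergic controls, which were at 12.72 to 12.82. DAT, the dopamine transporter, measured 9.77, 11.48 and 5.54 on the dopaminergic mutant arrays, against 6.95, 3.86 and 6.95 on the cholinergic mutant arrays. It had a difference of 3.01 ± 1.65 with array 3 and 4.70 ± 1.56 without it, close to the 4.78 ± 1.65 of controls, and the groups of mutants overlapped only through array 3. For DAT array 1 lay within the 9.58 to 11.33 of the dopaminergic controls.

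Fer2, a helix-loop-helix factor needed for a cluster of dopaminergic neurons, was the marker with the smallest difference in mutants. It measured 6.84, 9.59 and 6.92 on the dopaminergic mutant arrays, against 6.72, 5.84 and 5.87 on the cholinergic mutant arrays. On the control arrays it measured 10.31, 9.59 and 10.82 in dopaminergic neurons, against 5.05, 6.02 and 5.16 in cholinergic neurons. Arrays 1 and 3 of the dopaminergic mutants thus lay barely above the highest cholinergic mutant array, and array 2 was at the level of the dopaminergic controls. The difference was 1.64 ± 0.77 in mutants (unadjusted p = 0.0564) and 2.07 ± 0.84 without array 3 (unadjusted p = 0.0354). In controls it was 4.83 ± 0.77 (unadjusted p = 5.77e-05). The change with genotype was -3.19 ± 1.09, with an unadjusted p of 0.0133 and an adjusted p of 0.773. Ddc, the decarboxylase shared by dopamine and serotonin synthesis, measured 11.38, 11.19 and 6.32 on the dopaminergic mutant arrays, against 10.87, 11.24 and 9.37 on the cholinergic mutant arrays. Array 3 was the lowest of the 12, and the sign of the difference in mutants turned with it: the difference was -0.86 ± 1.22 with that array and 0.79 ± 0.64 without it, against 2.11 ± 1.22 in controls. Pu, the GTP cyclohydrolase that makes the cofactor of tyrosine hydroxylase, measured 11.66, 11.10 and 3.81 on the dopaminergic mutant arrays, against 3.67, 9.05 and 10.06 on the cholinergic mutant arrays. The 6 tested genes of the dopamine list had a median difference of 2.32 in mutants, 4.24 without array 3 and 4.13 in controls, beside medians over all 7612 genes of 0.22, 0.16 and 0.07.

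**Figure D1:**
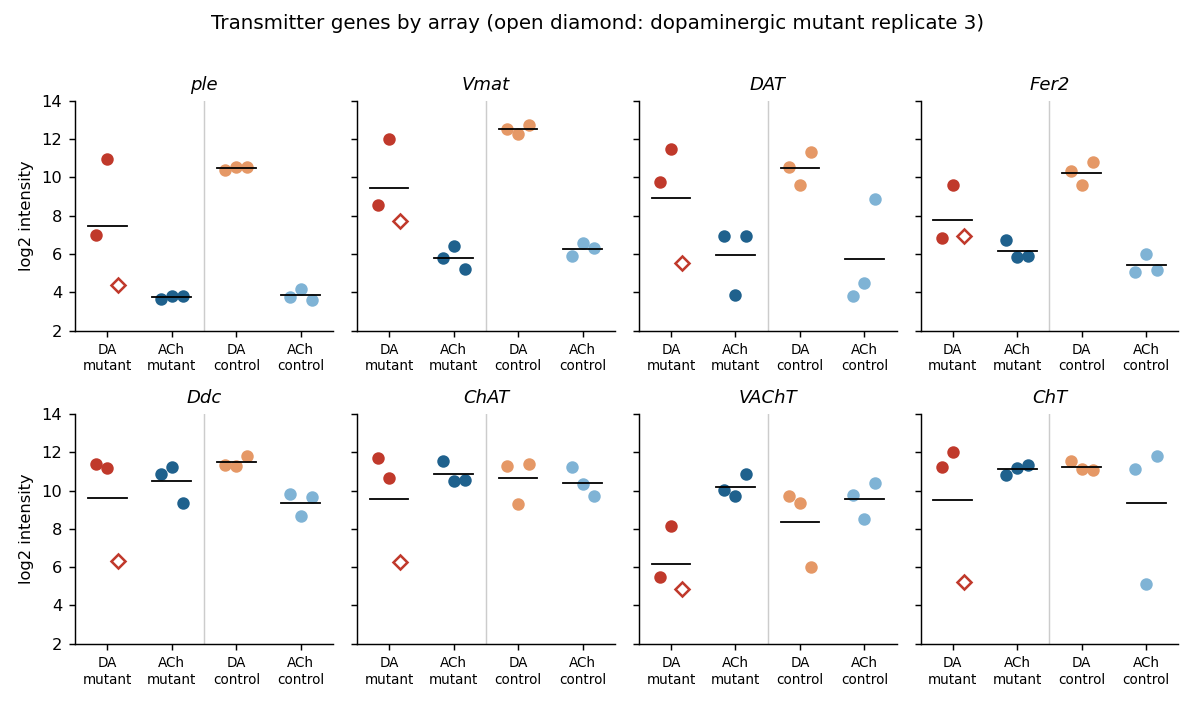
Log2 intensity per array of 8 transmitter genes in dopaminergic (DA) and cholinergic (ACh) neurons of parkin mutants (left) and controls (right). Points are arrays, bars are means of 3, and the open diamond is dopaminergic mutant array 3, at 4.36 for ple and 6.28 for ChAT. ple separates the neuron types in both genotypes, while ChAT does not in either.

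No cholinergic gene passed the threshold between the neuron types in either genotype, and only VAChT kept the mutant groups apart. ChAT, choline acetyltransferase, measured 11.72, 10.66 and 6.28 on the dopaminergic mutant arrays, against 11.55, 10.50 and 10.53 on the cholinergic mutant arrays. The control arrays had 11.30, 9.28 and 11.39 in dopaminergic neurons, against 11.21, 10.32 and 9.72 in cholinergic neurons. The difference of ChAT was -1.30 ± 1.26 in mutants with array 3 and 0.33 ± 0.77 without it, against 0.24 ± 1.26 in controls. For the choline transporter gene ChT the differences were -1.61 ± 1.91 in mutants, 0.53 ± 1.60 without array 3 and 1.89 ± 1.91 in controls. VAChT, the vesicular acetylcholine transporter, measured 5.49, 8.16 and 4.87 on the dopaminergic mutant arrays, against 10.03, 9.71 and 10.88 on the cholinergic mutant arrays, without overlap. With parkin the groups overlapped, at 9.74, 9.34 and 6.01 in dopaminergic controls, against 9.79, 8.54 and 10.38 in cholinergic controls. Its difference was -4.03 ± 1.16 in mutants (unadjusted p = 0.00500, adjusted p = 0.450) and -3.38 ± 1.26 without array 3, against -1.20 ± 1.16 in controls. The change of that difference did not pass (-2.83 ± 1.63, unadjusted p = 0.111).

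The brighter probe set of VGlut, the vesicular glutamate transporter, measured 8.42, 9.52 and 4.99 on the dopaminergic mutant arrays, against 7.78, 5.58 and 6.14 on the cholinergic mutant arrays. In controls it measured 4.90, 4.90 and 4.31 in dopaminergic neurons, against 5.07, 9.03 and 11.65 in cholinergic neurons. Its difference was 1.14 ± 1.51 in mutants, 2.47 ± 1.54 without array 3 and -3.88 ± 1.51 in controls (unadjusted p of the change 0.0385, adjusted p = 0.773). A second VGlut probe set stayed between 5.05 and 6.86 on every array.

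Across all genes, 2 of 12460 probe sets (0.0161%) passed the adjusted threshold between the neuron types of mutants, and both were lower in dopaminergic neurons. At an unadjusted p under 0.05 there were 1308 (10.5%). In controls no probe set passed (0 of 12460, 0%), and 452 (3.63%) were at an unadjusted p under 0.05. CG32246 measured 4.22, 4.66 and 4.77 on the dopaminergic mutant arrays, against 7.98, 8.41 and 8.98 on the cholinergic mutant arrays. With parkin it measured 4.18, 4.01 and 3.86 in dopaminergic neurons, against 3.49, 3.70 and 3.92 in cholinergic neurons, so the cholinergic mutant arrays stood above the other 9. The difference was -3.90 ± 0.48 in mutants (adjusted p = 0.0358) and 0.31 ± 0.48 in controls. Sps2, a selenophosphate synthetase, measured 5.54, 5.27 and 5.97 on the dopaminergic mutant arrays, against 9.39, 8.50 and 9.55 on the cholinergic mutant arrays. With parkin it measured 5.54, 5.20 and 5.35 in dopaminergic neurons, against 5.54, 6.63 and 5.79 in cholinergic neurons, and again the 3 cholinergic mutant arrays stood alone. Its difference was -3.55 ± 0.44 in mutants (adjusted p = 0.0358) and -0.63 ± 0.44 in controls. Without array 3 the sizes were -4.01 ± 0.47 and -3.74 ± 0.47, but neither passed (adjusted p = 0.0557 and 0.0717). Each of the 12 arrays was left out in turn. Leaving out a control array cannot move the difference in mutants, only its spread. With a mutant array left out, the difference of CG32246 stayed between -4.14 and -3.64 and that of Sps2 between -3.87 and -3.35. CG32246 passed in 4 of all 12 repeats (adjusted p from 0.00821 to 0.228) and Sps2 in 3 (adjusted p from 0.0144 to 0.228). For CG32246 these were the repeats without dopaminergic mutant array 2 or without 1 of the 3 cholinergic control arrays, and for Sps2 those without dopaminergic mutant array 2 or cholinergic control array 2 or 3.

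The 8 genes next in order had the same sign, with lower values in dopaminergic mutants, and did not pass. The noncoding lncRNA:CR33942 measured 4.89, 4.95 and 5.57 on the dopaminergic mutant arrays, against 8.08, 7.79 and 9.11 on the cholinergic mutant arrays (adjusted p = 0.0701). Ekar, a kainate-type glutamate receptor subunit, measured 4.41, 4.08 and 4.96 on the dopaminergic mutant arrays, against 7.78, 9.68 and 7.97 on the cholinergic mutant arrays (adjusted p = 0.0749). Both were dim on all 6 control arrays, at no more than 5.64 and 5.63. The scaffold protein gene cnk of the Ras pathway differed in another way, since its control arrays were bright. It measured 3.57, 5.34 and 3.82 on the dopaminergic mutant arrays, against 8.96, 9.0 and 10.25 on the cholinergic mutant arrays (-5.16 ± 0.76, adjusted p = 0.0701). In controls cnk measured 7.84, 6.50 and 7.13 in dopaminergic neurons, against 7.94, 8.10 and 10.01 in cholinergic neurons. The rest were the serpin Spn75F (-3.53), 1 probe set of the chromatin gene mod(mdg4) (-3.74), EMC1 of a membrane protein insertion complex (-3.13), the cuticle protein gene TwdlE (-5.12) and the junction scaffold gene pyd (-2.49), with adjusted p between 0.196 and 0.213. Other probe sets of mod(mdg4) and pyd disagreed in sign, with 1.34 and 1.17 as the highest, and both genes have many isoforms.

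No probe set was higher in dopaminergic than in cholinergic mutants past the adjusted threshold, although 767 (6.16%) were at an unadjusted p under 0.05. The tetraspanin gene Tsp42El came first, with 7.15, 7.06 and 7.30 on the dopaminergic mutant arrays, against 4.95, 5.71 and 4.49 on the cholinergic mutant arrays (2.1 ± 0.40, adjusted p = 0.227). On the control arrays it lay between 5.18 and 5.41 in dopaminergic neurons, against 5.10 to 5.64 in cholinergic neurons, so only the dopaminergic mutant arrays were brighter. PPYR1 (2.04), the translation factor gene eIF3g2 (2.28), Secp43 of selenocysteine tRNA binding (2.19), the zinc finger gene jing (2.04), CG8204 (1.95), CG7523 (1.77), CG32191 (2.17), the lipid droplet gene Ldaf1 (1.76) and Chsy of the chondroitin synthase family (1.77) followed, with adjusted p up to 0.372. All 10 separated the 3 dopaminergic from the 3 cholinergic mutant arrays, beside 13.8% of all probe sets that did so (18% without array 3, and 8.49% between the control groups). Their levels on the dopaminergic mutant arrays were modest, at 5.89 to 8.51, and array 3 was the lowest of the 3 for CG32191 alone. A second jing probe set had a difference of 0.05.

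Without array 3 a single probe set passed, and it was not CG32246 or Sps2. At an unadjusted p under 0.05 there were then 766 (6.15%), 451 higher and 315 lower. CG12535 measured 10.20, 10.41 and 6.20 on the dopaminergic mutant arrays, against 5.22, 6.03 and 5.91 on the cholinergic mutant arrays. On the control arrays it measured 6.64, 6.17 and 5.67 in dopaminergic neurons, against 5.28, 5.89 and 6.19 in cholinergic neurons. Arrays 1 and 2 of the dopaminergic mutants were thus bright alone among the 12. The difference was 4.58 ± 0.48 without array 3 (1 of 12460, 0.00803%, adjusted p = 0.0422) and 3.21 ± 0.93 with it (adjusted p = 0.450). Other genes that did not pass were also bright mainly on dopaminergic mutant arrays 1 and 2. CG31633 measured 11.22, 11.33 and 4.69 on the dopaminergic mutant arrays, against 6.35, 6.41 and 3.49 on the cholinergic mutant arrays (5.85 ± 0.77 without array 3, adjusted p = 0.0766). The cytochrome P450 gene Cyp4ac2 measured 11.69, 9.85 and 5.15 on the dopaminergic mutant arrays, against 4.07, 4.90 and 4.67 on the cholinergic mutant arrays (6.22 ± 0.84, adjusted p = 0.0766). On the dopaminergic control arrays CG31633 stayed at 4.04 to 4.62, and Cyp4ac2 at 4.83 to 7.06. CG32259 (4.30), the mitochondrial carrier gene SCaMC (4.61), CG34353 (4.24) and Orc1 of the origin recognition complex (6.04) were also above their cholinergic arrays without array 3, with adjusted p from 0.148 to 0.249. CG34353 is uncertain, since its other 7 probe sets had differences of -1.92 to 0.36 without array 3.

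**Figure D2:**
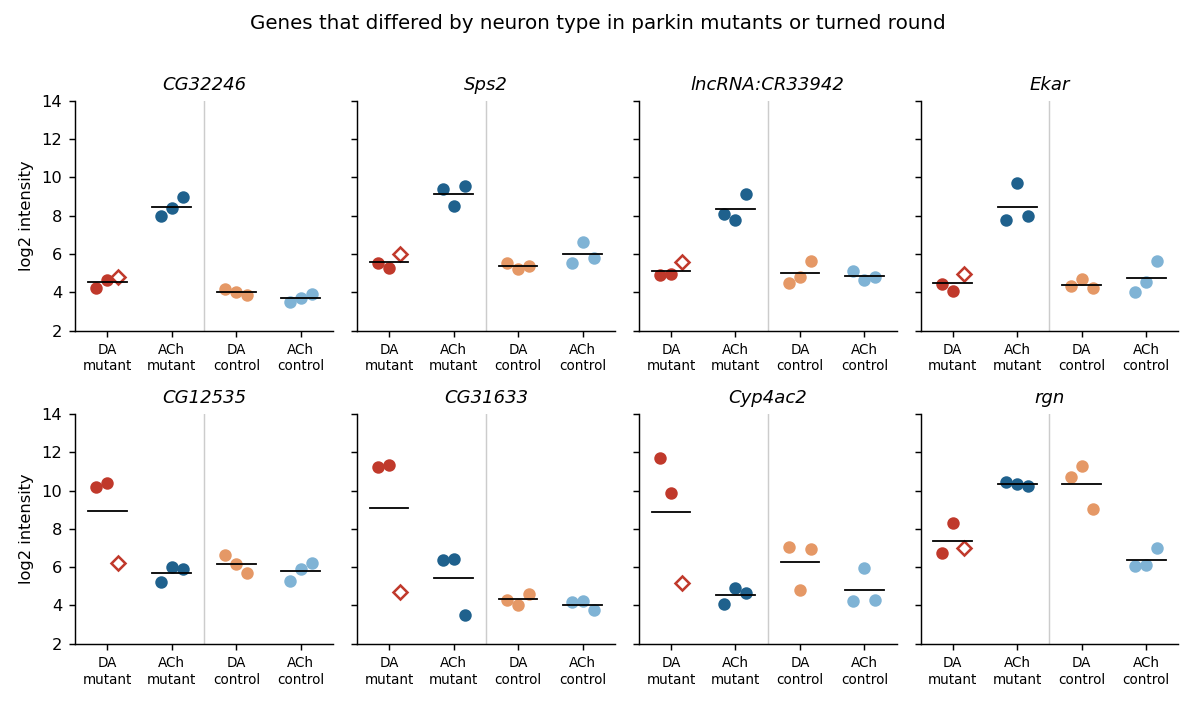
Log2 intensity per array of 8 genes that separated the neuron types in parkin mutants (CG31633 only without dopaminergic mutant array 3), drawn as for the transmitter genes. CG32246, Sps2, lncRNA:CR33942 and Ekar are higher on the 3 cholinergic (ACh) mutant arrays than on any other, and CG12535, CG31633 and Cyp4ac2 on dopaminergic (DA) mutant arrays 1 and 2. rgn is at 9.04 or more on the cholinergic mutant and dopaminergic control arrays and at 8.32 or less on the others.

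Differences that held with and without parkin were counted as probe sets with the same sign and an unadjusted p under 0.05 in both genotypes. The mutant and control comparisons share no array, only the estimate of spread. There were 39 such probe sets, 12 higher and 27 lower in dopaminergic neurons. Of 244 probe sets higher in dopaminergic control neurons (1.96% of all), 12 (4.92%) were also higher in mutants, against 6.16% of all probe sets. Of 208 that were lower in controls (1.67% of all), 27 (13%) were also lower in mutants, against 4.34% of all. Without array 3 there were again 39, but 22 were higher and 17 lower. Then 22 of 248 (8.87%) were higher in both genotypes, against 3.62% of all, and 17 of 207 (8.21%) were lower, against 2.53% of all. Only 23 probe sets, 8 higher and 15 lower, were in both counts. With the letter of the title code as a block there were 28 probe sets, 19 higher and 9 lower. Letter F holds only array 3, so this fit also leaves array 3 out of the comparison. In fits of their own, with only the 6 arrays of each genotype, 9 of 238 (3.78%) were higher in both, against 2.1% of all, and 18 of 204 (8.82%) were lower, against 4.24% of all. The opposite combination was counted as well. There were 30 such probe sets, 24 without array 3, and nearly all were higher in dopaminergic controls and lower in dopaminergic mutants: 29 of the 244 probe sets higher in dopaminergic controls (11.9%), against 4.34% of all, and 20 of 248 (8.06%) without array 3, against 2.53% of all.

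JhI-21, an amino acid transporter of the L type, came first among genes higher in dopaminergic neurons of both genotypes, which were ordered by the larger of their p-values in mutants and controls. It measured 10.96, 8.68 and 5.74 on the dopaminergic mutant arrays, against 4.43, 4.46 and 3.82 on the cholinergic mutant arrays. Among controls it measured 10.41, 7.99 and 10.74 in dopaminergic neurons, against 4.57, 5.35 and 4.66 in cholinergic neurons. No dopaminergic array overlapped a cholinergic one, and the differences were 4.22 in mutants (unadjusted p = 0.00306), 5.58 without array 3 and 4.85 in controls (unadjusted p = 0.00117). In controls alone the first Vmat probe set (unadjusted p = 5.97e-05) and ple (1.61e-04) had smaller p-values than JhI-21, and so they did averaged over genotypes (2.19e-05 and 7.10e-05, against 1.29e-04). Averaged over genotypes without array 3, JhI-21 and the first Vmat probe set were just short of the threshold (5.22 and 5.35, both adjusted p = 0.0531). PLCXD, which encodes a protein with a phospholipase C domain, measured 11.33, 6.59 and 4.61 on the dopaminergic mutant arrays, against 3.54, 3.48 and 2.58 on the cholinergic mutant arrays. It measured 8.65, 6.29 and 6.47 in dopaminergic controls, against 3.04, 4.04 and 3.22 in cholinergic controls. The neuron types did not overlap on any array, and the difference of PLCXD was 4.31 ± 1.37 in mutants and 3.71 ± 1.37 in controls.

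Arc1, a capsid-forming relative of retrotransposon Gag that responds to activity, had almost the same difference in both genotypes. It measured 9.23, 9.66 and 6.87 on the dopaminergic mutant arrays, against 5.82, 6.31 and 6.0 on the cholinergic mutant arrays. Among controls it measured 8.35, 11.10 and 8.44 in dopaminergic neurons, against 5.72, 7.07 and 7.37 in cholinergic neurons. The differences were 2.54 ± 0.94 in mutants and 2.58 ± 0.94 in controls, and its second probe set gave 2.47 and 2.63. Hs2st, a heparan sulfate sulfotransferase (2.49 in mutants and 2.05 in controls), CG17855 (1.66 and 1.83) and CG31806 (1.63 and 1.86) completed the named genes besides ple and Vmat. Without array 3, CG17855 (1.67, unadjusted p = 0.0805) and CG31806 (1.81, unadjusted p = 0.0570) were no longer under 0.05 in mutants. DAT, the F-box gene Fbl6, the Arf regulator Asap and the BMP receptor gene tkv then were in both genotypes, with mutant differences of 4.70, 2.82, 2.74 and 3.37. The second Vmat probe set (5.81) and SCaMC (4.61) were as well, and so was Fer2 (2.07, unadjusted p = 0.0354 in mutants). A second tkv probe set disagreed, at -0.26 without array 3. Fbl6 rested on that array: it measured 11.85, 9.97 and 3.05 on the dopaminergic mutant arrays, against 7.88, 8.67 and 7.72 on the cholinergic mutant arrays, and its difference with all arrays was 0.20 ± 1.75.

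The 12 genes named as lower in dopaminergic neurons of both genotypes, by the same order, began with beat-Ia. The immunoglobulin superfamily gene beat-Ia, which acts in the defasciculation of motor axons, measured 2.85, 3.1 and 3.70 on the dopaminergic mutant arrays, against 8.52, 9.06 and 4.96 on the cholinergic mutant arrays. Among controls it measured 2.80, 3.50 and 2.92 in dopaminergic neurons, against 6.51, 10.20 and 8.51 in cholinergic neurons. All 6 dopaminergic arrays were near the bottom of the scale, and the differences were -4.29 ± 1.08 in mutants, -4.53 ± 1.26 without array 3 and -5.33 ± 1.08 in controls. Its relative beat-Ic measured 3.27, 4.30 and 3.76 on the dopaminergic mutant arrays, against 8.19, 7.10 and 4.92 on the cholinergic mutant arrays. The differences of beat-Ic were -2.96 ± 0.94 in mutants and -2.98 ± 0.94 in controls, without overlap in either genotype. For neither gene was array 3 the lowest of the dopaminergic mutant arrays.

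The insulator protein gene su(Hw) measured 4.98, 4.53 and 5.64 on the dopaminergic mutant arrays, against 9.15, 10.98 and 9.77 on the cholinergic mutant arrays. In controls it measured 4.67, 4.46 and 8.12 in dopaminergic neurons, against 9.31, 8.39 and 10.37 in cholinergic neurons. The types were apart in both genotypes, by -4.92 ± 0.98 in mutants and -3.61 ± 0.98 in controls. The zinc finger gene unk measured 3.35, 4.86 and 3.37 on the dopaminergic mutant arrays, against 10.21, 10.26 and 9.39 on the cholinergic mutant arrays (-6.10 ± 1.35). In controls 1 dopaminergic array of unk, at 9.28, lay among the cholinergic arrays, and a second unk probe set had a difference of 0.22 in mutants. CG1965 (-4.22 in mutants and -4.04 in controls), CG17168 (-2.67 and -1.49) and the RNA-binding protein gene cpo (-3.78 and -3.50) kept the neuron types apart across all 12 arrays. CG2641 (-2.92 and -2.16), SCCRO3, of protein neddylation (-2.77 and -2.24), and the transcription factor gene Glut4EF (-4.25 and -3.99) did so within each genotype only, and another Glut4EF probe set gave 1.09 in mutants. The brightest cpo probe set gave -1.81 in mutants and 0.30 in controls, and a dim one -0.83 and -0.52. The gene can, known from testis as a TAF subunit, differed by -3.39 in mutants and -5.22 in controls. Tango11, the relative of a mitochondrial fission factor, differed by -3.15 and -3.96, and 1 cholinergic mutant array lay among the dopaminergic ones for both genes. Without array 3, cpo (-2.52, unadjusted p = 0.0644), Glut4EF (-3.73, unadjusted p = 0.0712) and Tango11 (-2.71, unadjusted p = 0.0960) were no longer under 0.05 in mutants. The other 9 were, with differences between -5.85 for unk and -2.75 for CG17168. The first 12 in order without array 3 were 8 of these 9, all but SCCRO3, and Wbp2 (-3.15), Unc-76, of axonal transport (-2.40), the lipid transfer protein gene rdgB (-2.20) and cue (-2.90). Of the last 4 only rdgB was not under 0.05 in mutants with all arrays (-1.70, unadjusted p = 0.0716), and its second probe set had the opposite sign (0.23 without array 3).

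**Figure D3:**
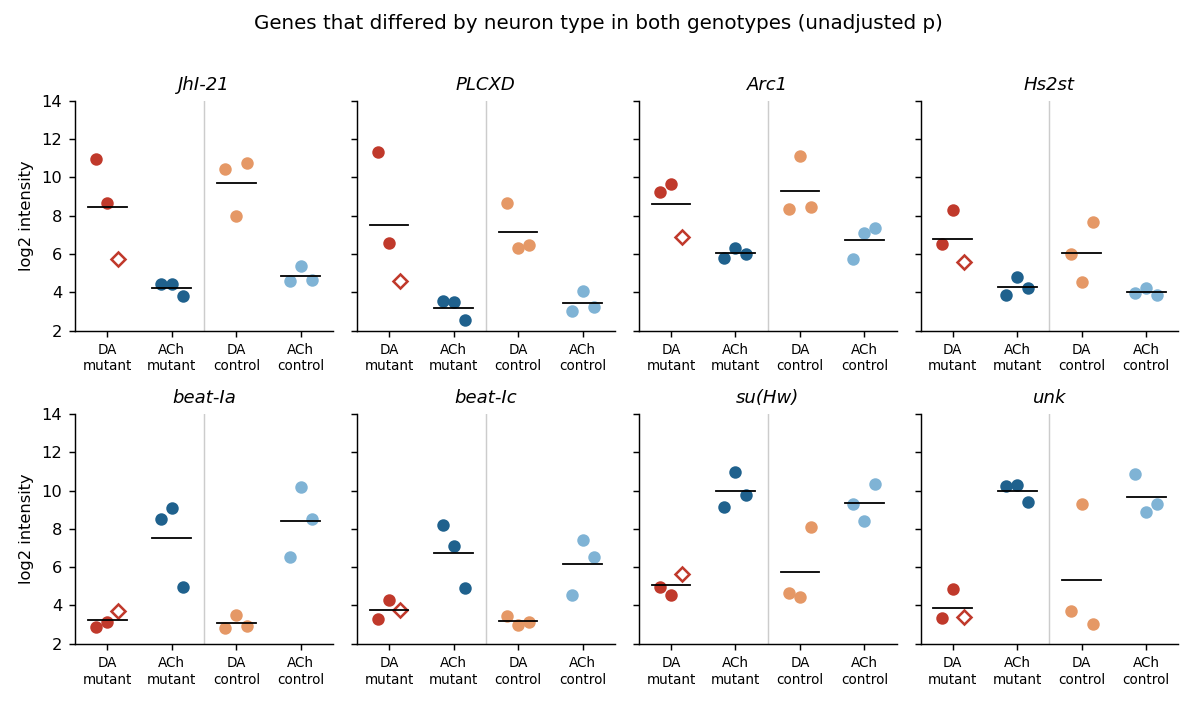
Log2 intensity per array of 4 genes higher (top) and 4 lower (bottom) in dopaminergic (DA) neurons of both genotypes at an unadjusted p under 0.05, drawn as for the transmitter genes. JhI-21 lies at 5.74 to 10.96 on the dopaminergic mutant arrays and at most 4.46 on the cholinergic (ACh) mutant arrays, and beat-Ia is at most 3.70 on every dopaminergic array.

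Across all 12 arrays, 52 probe sets (0.417%) kept the 6 dopaminergic arrays apart from the 6 cholinergic ones, 37 of them higher and 15 lower, and 71 (0.57%) did so without array 3. Of the 52, 39 had 1 gene symbol. Among them was DJ-1alpha, a fly relative of another gene of inherited Parkinson's disease, singled out here after its values were seen. It measured 7.48, 7.33 and 8.09 on the dopaminergic mutant arrays, against 6.41, 6.57 and 6.22 on the cholinergic mutant arrays. In controls it measured 7.84, 11.33 and 7.61 in dopaminergic neurons, against 6.60, 7.04 and 6.63 in cholinergic neurons. The dopaminergic excess was small apart from 1 control array, and the average over genotypes was 1.70 ± 0.61 (adjusted p = 0.672).

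**Figure D4:**
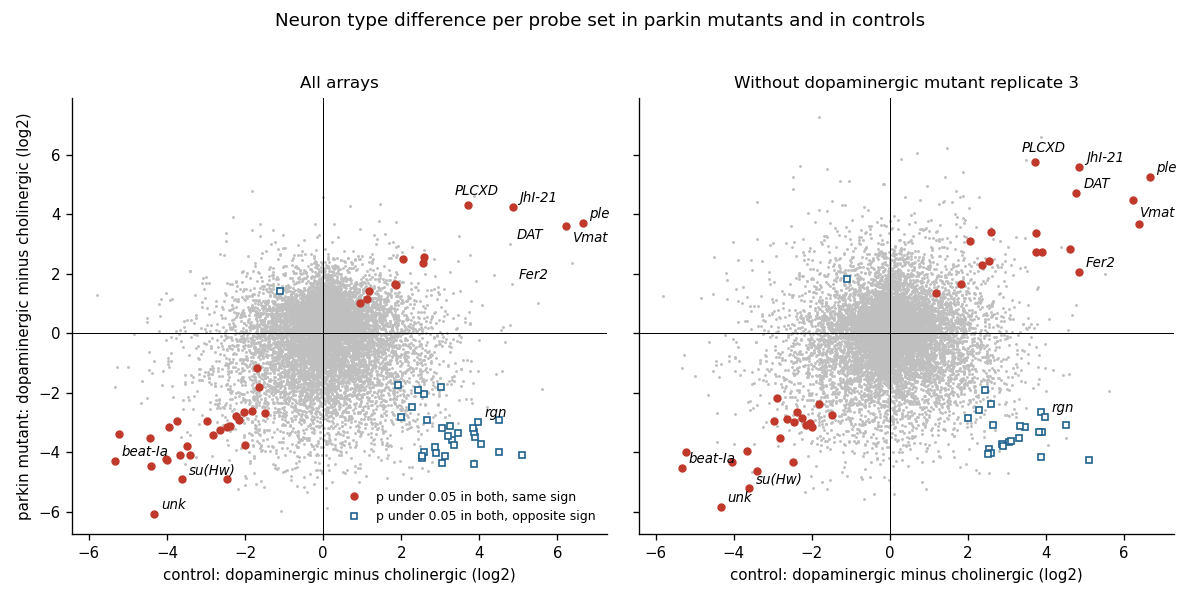
Difference between neuron types (dopaminergic minus cholinergic, log2) of each tested probe set in parkin mutants (vertical) against controls (horizontal), with all arrays (left) and without dopaminergic mutant array 3 (right). Filled red points have an unadjusted p under 0.05 and the same sign in both genotypes (39 on each side), and open blue squares have opposite signs (30 and 24). ple lies at 6.65 in controls and at 3.70 in mutants, or at 5.24 without that array.

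No probe set passed the adjusted threshold for a change of the difference between neuron types with genotype, with or without array 3, in limma (0 of 12460, 0%). At an unadjusted p under 0.05 there were 645 (5.18%), and 527 (4.23%) without array 3. The smallest p was that of rgn, named for regeneration and similar to C-type lectins. It measured 6.76, 8.32 and 7.02 on the dopaminergic mutant arrays, against 10.43, 10.37 and 10.26 on the cholinergic mutant arrays. Among controls it measured 10.73, 11.28 and 9.04 in dopaminergic neurons, against 6.05, 6.10 and 6.99 in cholinergic neurons. The order of the neuron types was thus opposite in the genotypes, without overlap in either, and the change was -6.96 ± 1.09 (unadjusted p = 5.04e-05, adjusted p = 0.326). CG7058 had the same form, with 3.24, 6.43 and 4.17 on the dopaminergic mutant arrays, against 7.92, 9.96 and 9.11 on the cholinergic mutant arrays. In controls CG7058 measured 7.46, 6.28 and 9.61 in dopaminergic neurons, against 3.01, 3.32 and 5.41 in cholinergic neurons. CG32246, whose p for the change lay between those of rgn and CG7058 (unadjusted p = 6.78e-05 and 1.55e-04 for CG32246 and CG7058), differed in mutants alone (change -4.21 ± 0.68). Without array 3, CG32246 came before rgn (unadjusted p = 5.50e-05 and 1.77e-04).

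In the other direction, E(spl)m5-HLH, a Notch target of the helix-loop-helix class, was highest on the cholinergic control arrays. It measured 4.63, 4.81 and 5.09 on the dopaminergic mutant arrays, against 4.43, 4.32 and 5.59 on the cholinergic mutant arrays. Among controls it measured 4.97, 4.44 and 4.45 in dopaminergic neurons, against 9.82, 8.93 and 7.75 in cholinergic neurons. The difference was 0.06 ± 0.55 in mutants and -4.22 ± 0.55 in controls, with an adjusted p of the change of 0.326. The sign of the mutant value turned under several alternatives. The maternal effect gene fs(1)K10 was likewise apart in controls alone (1.28 ± 1.19 in mutants and -5.80 ± 1.19 in controls). CG14074 differed by 3.47 ± 0.90 in mutants and by -1.83 ± 0.90 in controls.

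Lists of genes by function were described by their counts and medians, with 1 probe set per gene. Over all 7612 genes, 4277 were higher and 3335 lower in dopaminergic mutants, with 476 (6.25%) higher and 353 (4.64%) lower at an unadjusted p under 0.05. The difference moved with the level of a probe set. Among the 3115 brightest probe sets its median in mutants was -0.71, against 0.35 to 0.54 in the other 3 classes of that size. Without array 3 it was -0.13 in the brightest class and 0.19 to 0.29 in the others, and in controls it was 0.04 to 0.07 in all 4 classes. With each array centred on its own median, the brightest class in mutants was at -1.03. The part of this shift in the lists below was not tested. In several of the genes below, dopaminergic mutant arrays 1 and 3 were low together while array 2 was higher.

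Genes of synaptic vesicle release are strongly expressed in neurons. Of 25 tested, 5 were higher and 20 lower, 4 of them at an unadjusted p under 0.05, and none was called. Without array 3, 6 were higher and 19 lower, and none was at an unadjusted p under 0.05 in either direction. Their median was -1.38 in mutants, -0.58 without array 3 and 0.15 in controls. Snap25, a plasma membrane SNARE, measured 5.72, 11.58 and 3.85 on the dopaminergic mutant arrays, against 11.61, 11.20 and 10.30 on the cholinergic mutant arrays. The priming factor gene unc-13 measured 6.10, 11.45 and 6.32 on the dopaminergic mutant arrays, against 12.08, 11.37 and 10.89 on the cholinergic mutant arrays. In both, arrays 1 and 3 were dim and array 2 was as bright as the cholinergic arrays. The same held for synapsin (Syn, at 2.92, 9.82 and 4.13 on the dopaminergic mutant arrays) and Tomosyn (7.48, 11.51 and 7.48). Without array 2, these 4 genes passed the threshold (adjusted p between 0.00821 and 0.0216), and 112 of all 12460 probe sets did so, 19 higher and 93 lower. The dopaminergic mutants are then arrays 1 and 3 alone. These are the arrays that lacked the largest shares of probe sets bright on the others (20.1% and 70.0%).

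Most receptor genes for dopamine, octopamine, serotonin, acetylcholine, GABA and glutamate had lower values in dopaminergic mutants with all arrays. Without array 3 they were split almost evenly, and none was called in either fit. Of 13 receptors for dopamine, octopamine and serotonin, 4 were higher and 9 lower (2 at an unadjusted p under 0.05), and without array 3 the split was 7 to 6. Dop1R1, a dopamine receptor linked to cyclic AMP, measured 8.25, 8.02 and 4.85 on the dopaminergic mutant arrays, against 10.55, 9.83 and 10.89 on the cholinergic mutant arrays. It did not separate the control groups (0.96 ± 1.00, against -3.38 ± 1.00 in mutants), and the mutant difference was -2.29 ± 0.85 without array 3. Octbeta1R of the same list had a difference of -2.87 and a second probe set of the opposite sign. Of 9 acetylcholine receptor genes, 3 were higher and 6 lower (4 to 5 without array 3). nAChRbeta1 measured 7.33, 9.34 and 5.06 on the dopaminergic mutant arrays, against 10.87, 11.20 and 11.12 on the cholinergic mutant arrays (-3.82 ± 1.04, adjusted p = 0.428). Its control groups overlapped, with a difference of 0.81 ± 1.04. Among 13 receptors for GABA and glutamate, 2 were higher and 11 lower, with 3 of these at an unadjusted p under 0.05. Without array 3 the split was 6 to 7, with 1 at that level in each direction. Besides Ekar, the 3 included the chloride channel subunits GluClalpha (-4.05) and Lcch3 (-3.71). GluClalpha measured 5.79, 12.50 and 5.70 on the dopaminergic mutant arrays, against 12.07, 11.89 and 12.19 on the cholinergic mutant arrays. Lcch3 measured 4.18, 6.86 and 3.79 on the dopaminergic mutant arrays, against 10.40, 5.28 and 10.27 on the cholinergic mutant arrays. For GluClalpha array 2 was thus above every cholinergic mutant array, and for Lcch3 it was above 1 of them. Nmdar1, a subunit of the NMDA receptor, measured 11.18, 10.66 and 4.29 on the dopaminergic mutant arrays, against 6.80, 5.86 and 8.12 on the cholinergic mutant arrays. Nmdar1 thus had a difference of 1.78 ± 1.53 with array 3 and 4.00 ± 0.90 without it (adjusted p = 0.351), and 1.68 ± 1.53 in controls.

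Neuropeptide genes were split 11 to 8 of 19, none at an unadjusted p under 0.05, and peptide receptors 9 to 4 of 13. Without array 3 the splits were 13 to 6 and 8 to 5. The neuropeptide gene sNPF was then at 2.05 ± 0.89 (unadjusted p = 0.0454), against -0.16 ± 1.58 with all arrays. The receptor sNPF-R of short neuropeptide F stood out, with 5.77, 7.45 and 7.52 on the dopaminergic mutant arrays, against 12.19, 11.72 and 10.76 on the cholinergic mutant arrays. Its difference was -4.64 ± 1.07 in mutants (adjusted p = 0.323) and -4.94 ± 1.24 without array 3, against -0.02 ± 1.07 in controls. The CCHamide receptor genes CCHa2-R (difference 1.74) and CCHa1-R were at an unadjusted p under 0.05, and array 3 was the brightest of the 12 for both. Of 26 genes of voltage-gated and related channels, 12 were higher and 14 lower (16 and 10 without array 3). The calcium channel gene Ca-alpha1D measured 5.60, 7.84 and 6.82 on the dopaminergic mutant arrays, against 11.34, 11.56 and 9.34 on the cholinergic mutant arrays. In controls it measured 8.02, 11.49 and 11.63 in dopaminergic neurons, against 7.19, 7.17 and 9.01 in cholinergic neurons. The sign differed between genotypes (-3.99 ± 1.14 in mutants and 2.59 ± 1.14 in controls), and the change of -6.59 ± 1.61 had an adjusted p of 0.692. The potassium channel genes Irk1 and Irk2 had differences of 1.32 and 2.22, and Irk1 was at an unadjusted p of 0.0659 without array 3. Irk2 measured 10.34, 6.11 and 5.93 on the dopaminergic mutant arrays, so array 1 stood apart. Its cholinergic mutant arrays were at 5.11 to 5.37. The calcium channel gene cac differed by -3.54 in mutants and -4.43 in controls, and its second probe set had the opposite sign. It measured 3.64, 10.21 and 4.34 on the dopaminergic mutant arrays, against 7.74, 11.10 and 9.97 on the cholinergic mutant arrays, so array 2 lay within the cholinergic range.

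Cell surface genes of the dpr, DIP, beat and side families, which match synaptic partners, were split 24 higher to 22 lower of 46, with a median of 0.02. At an unadjusted p under 0.05, 8 of them (17.4%) were lower and 1 (2.17%) higher, against 4.64% and 6.25% of all genes, and without array 3, 5 (10.9%) were lower, against 2.76% of all genes. In controls 4 were lower and none higher. Besides beat-Ia and beat-Ic, beat-IV measured 6.09, 5.35 and 5.72 on the dopaminergic mutant arrays, against 9.67, 8.70 and 10.23 on the cholinergic mutant arrays (-3.82 ± 0.86, adjusted p = 0.303). The groups of mutants did not overlap for beat-IV, whereas those of controls did (-0.06 ± 0.86). Among 33 other genes of axon guidance and adhesion, 10 were higher and 23 lower, 5 of these at an unadjusted p under 0.05 (15 and 18 without array 3, with 2 of the lower at that level). Fas1, a homophilic adhesion protein, measured 4.16, 7.97 and 4.68 on the dopaminergic mutant arrays, against 10.03, 9.55 and 8.68 on the cholinergic mutant arrays. Nlg2 and Nlg3, neuroligins of the postsynaptic side, differed in sign (-3.74 ± 1.17 and 1.90 ± 0.68), neither past the adjusted threshold. The semaphorin gene Sema1a had a difference of -4.83 ± 1.82.

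Of 12 genes of Kenyon cells and cyclic AMP memory signalling, 2 were higher and 10 lower (5 and 7 without array 3), with a median of -1.51 (-0.61 without array 3 and -0.08 in controls). The adenylyl cyclase gene rut measured 3.60, 4.99 and 4.65 on the dopaminergic mutant arrays, against 8.81, 10.82 and 9.31 on the cholinergic mutant arrays. Its difference was -5.23 ± 1.23 with array 3 (adjusted p = 0.324) and -5.35 ± 1.47 without it, and -2.17 ± 1.23 in controls. Homeodomain and helix-loop-helix factors were split 27 to 15 of 42, with a median of 0.75 (0.33 without array 3) and differences of 1.32 for Pph13 and 1.02 for Oli. Among 9 clock genes, Pdp1, an activator of Clock, measured 3.17, 5.88 and 2.77 on the dopaminergic mutant arrays, against 9.67, 8.55 and 8.34 on the cholinergic mutant arrays. Here array 2 was below the cholinergic arrays as well, and the difference was -4.92 ± 1.07 in mutants, -4.33 without array 3 and -2.47 ± 1.07 in controls. Of 11 genes of neuronal activity, 2 were higher and 9 lower, Arc1 the 1 at an unadjusted p under 0.05.

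Mitochondrial and quality control genes, which bear on parkin, held no called member. In the PINK1 pathway and mitochondrial dynamics, 6 of 21 genes were higher and 15 lower, with a median of -0.68 (-0.40 without array 3 and 0.17 in controls). Mul1, a mitochondrial ubiquitin ligase, measured 7.03, 6.47 and 7.53 on the dopaminergic mutant arrays, against 6.43, 5.53 and 4.89 on the cholinergic mutant arrays (1.39 ± 0.46, adjusted p = 0.450). The channel gene porin measured 6.88, 11.12 and 7.96 on the dopaminergic mutant arrays, against 10.90, 11.18 and 11.22 on the cholinergic mutant arrays, so that again array 2 alone was at the cholinergic level. Complex I subunits were split 12 to 13 of 25, with ND-13A at 5.62, 5.10 and 6.4 on the dopaminergic mutant arrays, against 7.77, 9.63 and 8.67 on the cholinergic mutant arrays. The difference of ND-13A was -2.98 ± 0.65 (adjusted p = 0.295), -3.33 ± 0.72 without array 3 and -0.07 ± 0.65 in controls, and the change with genotype did not pass (adjusted p = 0.773). Subunits of complexes II to V were split 9 to 20 of 29. COX7A measured 6.04, 8.61 and 6.14 on the dopaminergic mutant arrays, against 9.06, 9.27 and 8.94 on the cholinergic mutant arrays, with array 2 close to the cholinergic level. Its difference was -2.16 ± 0.88, and -1.76 without array 3 (unadjusted p = 0.101).

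In the tricarboxylic acid cycle with pyruvate dehydrogenase, 1 of 11 genes was higher and 10 were lower. Its median was -1.45 in mutants and -1.54 without array 3, against 0.06 in controls. At an unadjusted p under 0.05, 3 were lower with array 3 and 2 without it. Idh3g, a subunit of isocitrate dehydrogenase, measured 6.59, 5.76 and 6.26 on the dopaminergic mutant arrays, against 7.34, 9.47 and 9.76 on the cholinergic mutant arrays. ScsbetaA, a subunit of succinyl-CoA synthetase, measured 6.85, 7.23 and 8.16 on the dopaminergic mutant arrays, against 10.74, 9.50 and 9.97 on the cholinergic mutant arrays. Neither overlapped between the types of mutants, with differences of -2.65 ± 0.80 and -2.66 ± 0.92 (adjusted p = 0.450 for both). ScsbetaA differed by -2.04 ± 0.92 in controls, where its arrays overlapped. Ogdh measured 4.50, 10.36 and 3.48 on the dopaminergic mutant arrays, against 10.52, 11.67 and 9.85 on the cholinergic mutant arrays, with arrays 1 and 3 dim.

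Of 31 genes of autophagy and the lysosome, 12 were higher and 19 lower. lt, the Vps41 subunit of a lysosomal tethering complex, measured 5.35, 5.10 and 6.08 on the dopaminergic mutant arrays, against 11.45, 9.78 and 10.17 on the cholinergic mutant arrays (-4.96 ± 1.20, adjusted p = 0.353). Atg1, the kinase that starts autophagy, measured 4.92, 6.58 and 5.83 on the dopaminergic mutant arrays, against 8.05, 10.52 and 10.41 on the cholinergic mutant arrays (-3.88 ± 1.06, adjusted p = 0.428). Both kept the types apart in mutants on all 6 arrays and overlapped in controls, and the differences without array 3 were -5.24 and -3.91. The proton pump of the lysosome was split 2 to 13 of 15, but 8 to 7 without array 3, and Vha26 measured 6.16, 12.06 and 5.69 on the dopaminergic mutant arrays. Among 17 antioxidant and glutathione genes, 10 were higher and 7 lower. GstE12, a glutathione transferase, measured 6.93, 6.07 and 7.44 on the dopaminergic mutant arrays, against 5.38, 5.27 and 4.74 on the cholinergic mutant arrays (1.68 ± 0.43, adjusted p = 0.372, and -0.26 ± 0.43 in controls). Sod3, a superoxide dismutase with another probe set of the opposite sign, had a difference of 2.86 ± 1.18 with dopaminergic mutant array 1 at 10.43 and the other 2 at 5.26 and 6.91. Of 13 heat shock genes and chaperones 5 were higher and 8 lower (9 and 4 without array 3), with the heat shock factor gene Hsf at -3.28 ± 1.11 and the small heat shock gene l(2)efl at 1.48 ± 0.63. Among 11 iron genes the ferritin gene Fer2LCH measured 5.32, 9.06 and 5.54 on the dopaminergic mutant arrays, against 8.40, 11.18 and 10.21 on the cholinergic mutant arrays. Array 2 lay above the lowest cholinergic array, and the difference was -3.29 ± 1.17 in mutants, -2.74 without array 3 (unadjusted p = 0.0614) and 2.02 ± 1.17 in controls.

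**Figure D5:**
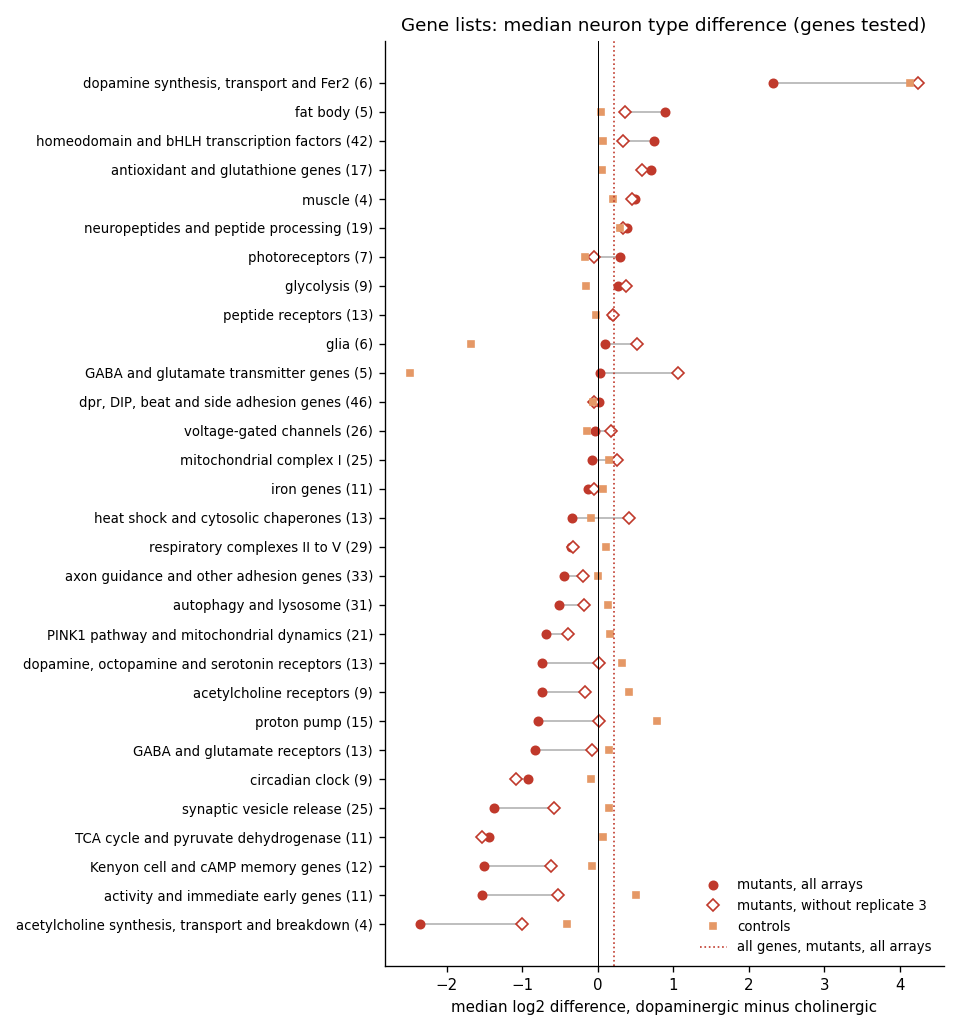
Median difference between neuron types (dopaminergic minus cholinergic, log2) of each gene list with at least 4 tested genes, whose number is in parentheses: parkin mutants with all arrays (filled circles) and without dopaminergic mutant array 3 (open diamonds), and controls (squares). The dopamine list is farthest to the right at 2.32, 4.24 and 4.13, and the tricarboxylic acid cycle list stays near -1.5 in mutants with and without that array. The dotted line is the median of all genes in mutants, 0.22.

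Markers of other cells were measured beside these results. The mean of 3 pan-neuronal genes (elav, nSyb and brp) was 7.41 to 11.21 on the dopaminergic mutant arrays, with array 3 at the bottom and arrays 1 and 2 at 11.20 and 11.21, against 11.04 to 11.55 on the cholinergic mutant arrays. On array 3 nSyb still measured 10.65, whereas elav and brp were at 6.27 and 5.31. The mean of 8 glial markers was 4.64 to 6.78 on the dopaminergic mutant arrays and 5.86 to 6.58 on the cholinergic mutant arrays. Of these, repo, the defining glial factor, was at 7.39 on dopaminergic mutant array 2, 5.73 on cholinergic mutant array 2 and at most 3.09 on the other 10. The GABA transporter gene Gat, which glia express, was at 12.15 on dopaminergic mutant array 1 and 9.24 on array 2. It was also at 9.25 on cholinergic mutant array 1 and 9.80 on cholinergic control array 1, and at most 5.53 elsewhere. The surface glial gene moody was at 5.44 to 8.89 on the cholinergic mutant arrays, against 3.56 at most on the dopaminergic mutant arrays. In controls moody measured 9.59, 2.60 and 10.49 in cholinergic neurons, against 2.95, 2.52 and 6.60 in dopaminergic neurons. The fat body markers averaged 6.82 on array 3, against 5.10 to 5.89 on the other dopaminergic mutant arrays and 5.03 to 5.31 on the cholinergic mutant arrays. Muscle markers averaged 6.4 to 6.81 on the dopaminergic mutant arrays and 5.56 to 6.93 on the cholinergic mutant arrays, and photoreceptor markers 5.63 to 6.49 and 6.11 to 6.4. Array 3 was the highest of the dopaminergic mutant arrays for both. The median log2 intensity of array 3 was also the highest of the 12 arrays, at 6.30. How far this higher level enters its fat body, muscle and photoreceptor averages was not tested. The part of other cells in the differences above was not tested.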

How the data were processed

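Pools of 115 sorted neurons were amplified (Ovation One-Direct, Encore Biotin Module) and hybridised to Affymetrix Drosophila 2.0 arrays, per the labels' protocols. The deposited table holds log2 intensities per probe set made by the authors, and the normalization behind them is not given in the sources used here. They were used as deposited. Of 18952 probe sets, 183 controls were removed. Of the other 18769, 13647 have 1 gene symbol, 402 several and 4720 none in the platform annotation, and 13544 of the single symbols matched the fly reference. A probe set was kept if it was at or above its array's median on at least 3 of the 12 arrays, which left 12460. limma 3.58.1 in R 4.3.3 (lmFit, then eBayes with an intensity trend) fitted 1 mean per group over the 12 arrays. The fit gave dopaminergic minus cholinergic neurons in mutants and in controls, the change between them and their average, as two-sided tests with Benjamini-Hochberg adjustment over all 12460 at a threshold of 0.05. The same fit was repeated without dopaminergic mutant array 3. All p-values in the text are from limma, "unadjusted p" before adjustment. limma was also tested on simulated data. There the spread of each probe set was resampled on its own, so a loss across a whole array, as on array 3, was not simulated. The arrays limit the precision through their number, 3 a group.

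Named genes were 9 transmitter genes, the 10 with the smallest p in each direction in mutants (with and without array 3), up to 12 in each direction in both genotypes, up to 3 in each direction for the change, and up to 4 with the smallest p in each list. Pu, DJ-1alpha and the markers of other cells named singly were chosen after their values were seen. The members and lists were chosen with earlier results of these data known. A gene in a list is represented by 1 probe set, its brightest, and probe sets of a gene that disagree are named. parkin itself is not analysed here. Arrays were numbered within groups by accession order, so the numbers pair nothing. Alternatives changed the scaling, filter, variance model, weights and arrays used. Tables and plots were made with Python 3.11.15, pandas 2.3.3 and matplotlib 3.10.9.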

Additional observations from a re-analysis of the deposited data

How the results depend on the processing

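The count of 2 probe sets called in mutants became 6 at a threshold of 0.1, 6 with arrays centred on their medians, 1 without the trend, and 0 under quantile normalization, a filter at the 65th percentile, robust eBayes, only the 6 mutant arrays or the title letter as a block. The letter block also takes dopaminergic mutant array 3 out of the comparison, since letter F holds only that array. Array weights gave 620 (329 higher), from an estimation that stopped before it converged. Leaving out 1 array at a time gave 0 to 112: 112 without dopaminergic mutant array 2, 5 without cholinergic control array 3, 1 without dopaminergic mutant array 3 or dopaminergic control array 2, 2 without cholinergic mutant array 3 or cholinergic control arrays 1 or 2, and 0 without any other. The 0 calls in controls became 1 with no filter, 6 with weights and 1 with only the 6 control arrays, and 0 to 5 with 1 array left out. For the change with genotype, leaving out 1 array gave 0 to 3 calls, with 3 without dopaminergic mutant array 2. For the average over genotypes the 0 calls became 23 with weights and 0 to 27 with 1 array left out, 27 of them without dopaminergic mutant array 2. The 1 call without array 3 became 0 with only the other 5 mutant arrays and 3 with centring. The 39 probe sets in both genotypes (12 higher, 27 lower) became 106 with weights, 31 with the filter at the 65th percentile, 27 with only the arrays of 1 genotype in each fit, 28 (19 higher, 9 lower) with the letter block and 32 to 73 with 1 array left out, 73 without dopaminergic mutant array 2. The cause was not tested.

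Of 2551 values of 122 named probe sets under 21 alternatives, 2403 kept their sign and their side of the threshold and 23, of 7 probe sets, changed sign. A control array left out, another filter or another variance model leaves a difference in mutants unchanged, so its sign could not turn. With 2 probe sets called in mutants, the others only had to stay uncalled. The count of 2403 is therefore no measure of stability. The letter block and the fit without dopaminergic mutant array 3 both drop that array, so their values are not separate checks. In mutants Ddc (-0.86) was 0.23 with weights, 0.92 with the letter block and -1.74 to 0.79 with 1 array left out. ChAT (-1.30) was 0.27, 0.63 and -2.39 to 0.33 under the same alternatives. ChT (-1.61) was 1.24 with the letter block and -2.88 to 0.53 with 1 array left out. The dimmer VGlut probe set (0.16) was -0.16 with quantile normalization, -0.15 with centring, -0.010 with the letter block and -0.20 to 0.71 with 1 array left out. E(spl)m5-HLH (0.06) was -0.22, -0.25, -0.25 and -0.17 to 0.47 under those alternatives. fs(1)K10 (1.28) was -0.13 with weights, and Fbl6 (0.20) was -0.12 with centring and -1.58 to 2.82 with 1 array left out. Of 703 values of 32 list medians, 43 moved by more than the spread between arrays. No paired analysis was possible because the labels give no replicate numbers. Signal over background could not be set for single spots, since only summarised probe set values were used.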
